A study of Mus musculus with 18 samples.

Results

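The change in the heat shock response on knockdown of HSF1 was measured in immortalized mouse embryonic fibroblast (MEF) cells, as the heat response of HSF1-KD cells minus that of SCR cells. All 19938 gene symbols measured were examined, and the account below follows the genes outside the chaperones, those whose response changed and those whose response was kept. Of the 18 arrays of the series, 12 enter this comparison, 3 in each of 4 groups. MEF cells of ICR mouse background had been infected with adenovirus carrying either a scrambled RNA (SCR) or a short hairpin RNA against mouse HSF1 (HSF1-KD), with 2 h of contact with the virus and then 70 h in normal medium. They were left at 37 °C (Cont) or placed at 42 °C for 1 h (HS), so that every group, controls included, carried adenovirus. The other 6 arrays came from cells with a short hairpin RNA against SSBP1 (SSBP1-KD). They were used for the spread of the values and for 1 choice of genes made without the SCR arrays. The labels do not say that the 3 arrays of a group came from separate cultures, and the p-values reflect only how far these samples spread, and that spread may be technical. The transcript of the targeted gene, Hsf1, had no probe set with 1 symbol, and its knockdown was not analysed here.

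HSF1 is the main transcription factor of the heat shock response. It is held inactive by chaperones in unstressed cells, and on heat shock it forms trimers, binds heat shock elements, which are inverted repeats of the unit nGAAn, and recruits chromatin remodelling factors and RNA polymerase II. It is best known for inducing chaperones such as HSP70, and heat shock also activates MAP kinase signalling and immediate-early genes, and lowers the transcription of many other genes.

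The deposited values are log2 signals, which had been normalized by RMA. All heat responses and differences below are on this log2 scale, where 1 unit is a doubling of the signal. A gene is said to rise, fall or differ where limma gave a Benjamini-Hochberg adjusted p under 0.05 over all probe sets. Heat shock raised 1522 symbols in SCR (7.63% of those measured) and 2114 in HSF1-KD (10.6%), and lowered 1663 (8.34%) and 2158 (10.8%). The difference in heat response, a test of the interaction itself, was below 0 for 67 symbols (0.336%), called smaller responses here, and above 0 for 2 (0.01%), called larger. At an unadjusted p under 0.05 it was below 0 for 825 symbols and above 0 for 742, and its median over all symbols was 0.00. Array medians lay between 7.88 and 7.94, and the 12 arrays correlated at 0.993 or more with the others of their group. One array, SSBP1-KD Cont replicate 1, stood apart, with a mean absolute residual of 0.152 against 0.0700 to 0.0976 in the 12 arrays compared. Without it the fit called 73 smaller and 5 larger responses.

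The cells carried fibroblast transcripts in all 4 groups. The 11 fibroblast markers had a median log2 signal of 11.43 in SCR Cont and 11.08 in HSF1-KD Cont, while the medians of the macrophage, endothelial, epithelial, muscle, adipocyte and neural markers in SCR Cont lay between 6.62 and 7.84. Signals of different probe sets are not amounts of RNA on 1 scale, so that these medians are only a check of the label. The log2 signals of the fibroblast markers summed to between 119.2 and 120.0 on the SCR Cont arrays, 118.7 and 119.4 on SCR HS, 116.9 and 117.5 on HSF1-KD Cont and 115.9 and 116.3 on HSF1-KD HS. Of the 11 markers, 7 were lower and 1 higher in HSF1-KD than in SCR in Cont, against 10.1% and 10.9% of all symbols. Sums of the 6 macrophage and leukocyte markers were higher in HSF1-KD without overlap, at 42.3 to 42.7 in SCR Cont and 41.9 to 42.8 in SCR HS against 43.5 to 43.9 in both HSF1-KD groups, and so were those of the 4 endothelial markers, at 28.5 to 28.8 in SCR Cont against 29.4 to 29.5 in HSF1-KD Cont. The part of these shifts in the differences below was not tested. In these bulk samples, fewer cells holding a transcript and less of it per cell cannot be told apart.

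The study took genes as heat-inducible at a fold change of more than 1.5 with p under 0.05. Read here as a p before adjustment, and applied to both directions, these cut-offs gave 120 genes raised in SCR (0.602%) and 130 lowered (0.652%). Of the raised genes, 15 were chaperones or co-chaperones and 105 were not. All 15 chaperones had a smaller response in HSF1-KD, and 13 of them no longer rose there. The 105 other genes divided. Responses were smaller for 31 of them, of which 18 no longer rose in HSF1-KD and 13 still did. The response was larger for 1, Egr1. A further 38 were kept, meaning that they rose by over 1.5-fold in HSF1-KD with a difference that missed the threshold. The remaining 35 fitted neither class, and 29 of these still rose. In all, 81 of the 105 rose in HSF1-KD. Because these genes were chosen for a rise on the SCR arrays that the difference also uses, the choice itself favours a difference below 0. Such a sign was seen for 89 of the 105, against 9914 of all 19938 symbols.

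**Figure D1:**
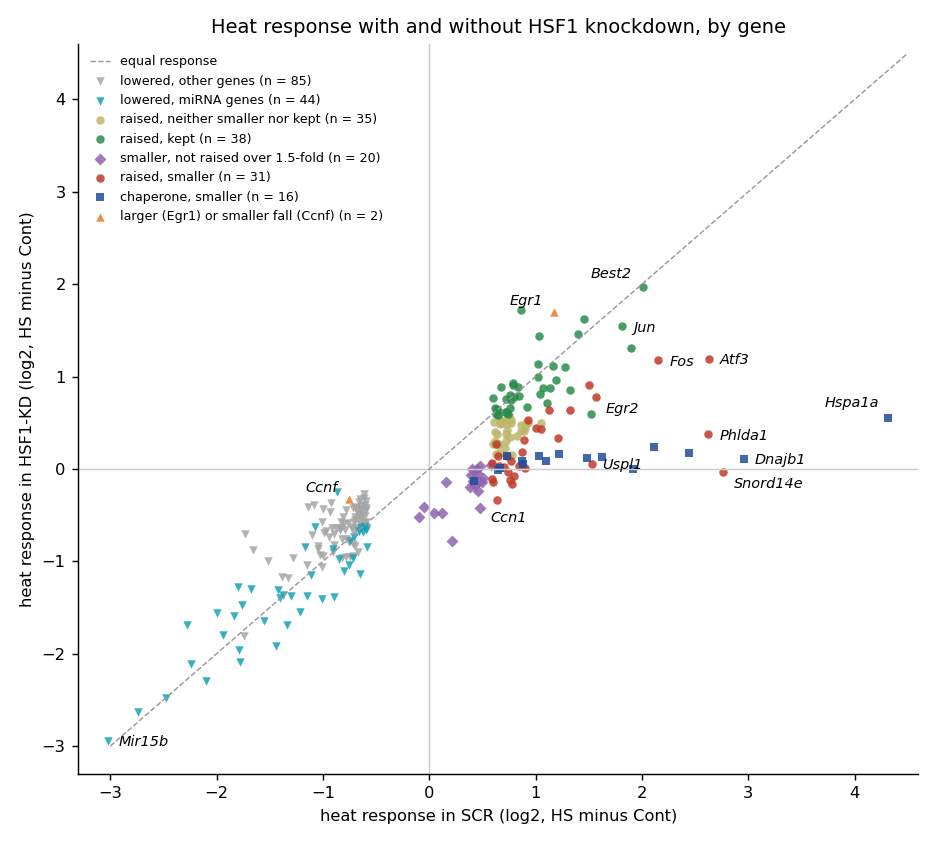
Log2 heat response (HS minus Cont, mean of 3 arrays each) in SCR (horizontal axis) and in HSF1-KD (vertical axis) of the genes raised or lowered over the fold in SCR and of those whose difference passed, 1 point per gene, coloured by class. Points on the dashed diagonal responded equally. Hspa1a lies far below it at 4.31 in SCR and 0.55 in HSF1-KD, whereas Jun at 1.81 and 1.54 and Best2 at 2.01 and 1.97 lie near it.

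Hspa1a, which encodes inducible HSP70, serves as the reference for a chaperone. Its log2 signal was 8.42, 8.63 and 8.54 in SCR Cont, 12.79, 12.85 and 12.90 in SCR HS, 8.52, 8.62 and 8.61 in HSF1-KD Cont and 9.10, 9.14 and 9.16 in HSF1-KD HS. The HSF1-KD arrays rose with heat without overlap, yet stayed far below every SCR HS array. The response fell from 4.31 to 0.55, a difference of -3.76 (95% interval -3.96 to -3.56, limma adjusted p = 1.04e-11). Serpinh1, the collagen chaperone HSP47, was a 16th chaperone with a smaller response (difference -0.55), below the fold in SCR. Over the 15 raised chaperones the median share of the SCR response that was left in HSF1-KD was 7.78%.

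For the 31 genes outside the chaperones with a smaller response that had been raised over the fold, the median difference was -0.70 and the median share of the SCR response left was 14.3%. Both follow in part from the choice of genes whose difference passed below 0. The spread between arrays bears on the count of 31, which was 16 without SCR HS replicate 2 and 20 without SCR HS replicate 3.

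Phlda1, a pleckstrin homology-like domain protein known as a target of HSF1, had the most negative difference among the protein-coding genes outside the chaperones. Its log2 signal was 9.69, 9.67 and 9.49 in SCR Cont, 12.12, 12.19 and 12.41 in SCR HS, 9.69, 9.59 and 9.63 in HSF1-KD Cont and 10.03, 10.11 and 9.89 in HSF1-KD HS. Cells of both kinds started at the same level, and every SCR HS array was above every HSF1-KD HS array. The rise was 2.62 in SCR and 0.38 in HSF1-KD, and the difference was -2.25 with a standard error of 0.12 (95% interval -2.51 to -1.98, limma adjusted p = 7.99e-08). A small rise thus remained, with an adjusted p of 0.00679.

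Uspl1, a protease that acts on SUMO, lost its response. Its log2 signal was 9.80, 9.83 and 9.61 in SCR Cont, 11.13, 11.36 and 11.34 in SCR HS, 10.01, 10.07 and 10.00 in HSF1-KD Cont and 10.15, 10.12 and 10.00 in HSF1-KD HS. The HSF1-KD arrays overlapped between Cont and HS and began slightly above SCR, by 0.28 (adjusted p = 0.0133). Heat responses of 1.53 and 0.06 gave a difference of -1.47 (95% interval -1.69 to -1.25, limma adjusted p = 1.24e-06).

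Saraf, an inhibitor of store-operated calcium entry, and Ifitm5, a membrane protein best known from bone, also rose in SCR alone. Saraf was at 10.56, 10.53 and 10.61 in SCR Cont, 11.16, 11.51 and 11.36 in SCR HS, 10.87, 10.91 and 10.95 in HSF1-KD Cont and 10.82, 10.79 and 10.64 in HSF1-KD HS on the log2 scale. Ifitm5 was at 8.04, 8.08 and 8.19, then 8.91, 8.99 and 9.12 in SCR, and at 8.07, 8.20 and 8.05, then 8.12, 8.11 and 8.12 in HSF1-KD. For both genes the SCR HS arrays stood above all others, and for Saraf the HSF1-KD Cont arrays were also above SCR Cont. The differences were -0.94 (limma adjusted p = 0.000233) and -0.90 (0.000169).

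Edn1, which encodes the vasoconstrictor peptide endothelin-1, was lower in HSF1-KD before heat and did not rise. The SCR arrays read 9.87, 10.00 and 9.97 in Cont and 10.64, 10.82 and 10.76 in HS, and the HSF1-KD arrays 9.56, 9.66 and 9.41 in Cont and 9.43, 9.55 and 9.43 in HS, all log2 signals. No HSF1-KD array reached the SCR Cont level, the Cont groups differing by -0.40 (adjusted p = 0.00113). Its heat responses were 0.80 and -0.07 (difference -0.87, limma adjusted p = 0.000476).

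Further genes of this kind were Slc5a3, the sodium and myo-inositol cotransporter, with a difference in heat response of -0.88, Swt1, an RNA endonuclease, with -0.81, Clu, which encodes the secreted chaperone clusterin and is on none of the chaperone lists used here, with -0.77, Trmt1l, a tRNA methyltransferase-like protein, with -0.69, Papolb, a poly(A) polymerase known from testis, with -0.69, Amotl2, a member of the angiomotin family, with -0.68, and Arrdc3, an arrestin domain protein, with -0.62. None of these 7 rose in HSF1-KD, where their heat responses ran from -0.12 for Slc5a3 to 0.18 for Papolb. Set, an inhibitor of protein phosphatase 2A, had -0.73 (adjusted p = 0.0213), but its other probe set gave -0.20 (adjusted p = 0.61). Cd3e, a subunit of the T cell receptor complex, and Ephx3, an epoxide hydrolase, still rose in HSF1-KD, with responses of 1.33 and 0.63 for Cd3e and 1.05 and 0.43 for Ephx3. The Ephx3 signal after heat did not differ between the cells (0.00, adjusted p = 0.984), since HSF1-KD began 0.62 higher. Of the 23 alternative settings, among them each array left out in turn, the call was lost under 12 for Clu and Cd3e, 8 for Set and Papolb, 6 for Arrdc3 and 3 for Ephx3, with adjusted p up to 0.222 (Set). SCR HS replicate 2 was among the arrays whose absence ended each of these 6 calls. The calls for Slc5a3, Swt1 and Amotl2 were lost with the ordinary linear model alone (adjusted p = 0.0759, 0.105 and 0.0789).

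The most negative difference of all outside the chaperones belonged to a small nucleolar RNA, Snord14e, which is named here after its values were seen. Its log2 signal was 10.36, 10.45 and 10.06 in SCR Cont, 12.97, 13.01 and 13.17 in SCR HS, 10.20, 10.47 and 10.24 in HSF1-KD Cont and 10.23, 10.26 and 10.31 in HSF1-KD HS. The 9 arrays other than SCR HS overlapped in a narrow band, and the SCR HS arrays were far above them. The heat response was 2.76 in SCR and -0.03 in HSF1-KD, a difference of -2.79 (standard error 0.13, 95% interval -3.07 to -2.52, limma adjusted p = 9.85e-09), which passed under each of the 23 alternatives. In SSBP1-KD the rise was 2.06. In RefSeq on GRCm38.p6, Snord14e lies at chr9:40804748-40804838, inside the interval of Hspa8 at chr9:40801276-40805202. Hspa8 encodes the constitutive chaperone HSC70, and its own probe set rose by 0.19 in SCR and 0.03 in HSF1-KD, with a difference of -0.16 (adjusted p = 0.457), while its 2 other probe sets gave -0.18 and -0.08 (adjusted p = 0.397 and 0.929). Which transcript of this interval the Snord14e probe set read was not tested. A second snoRNA, Snora20, lies inside Tcp1, a chaperonin subunit gene, and was also named after its values were seen. Its response was 0.21 in SCR and -0.78 in HSF1-KD, and the difference was -0.99 (adjusted p = 0.00369).

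**Figure D2:**
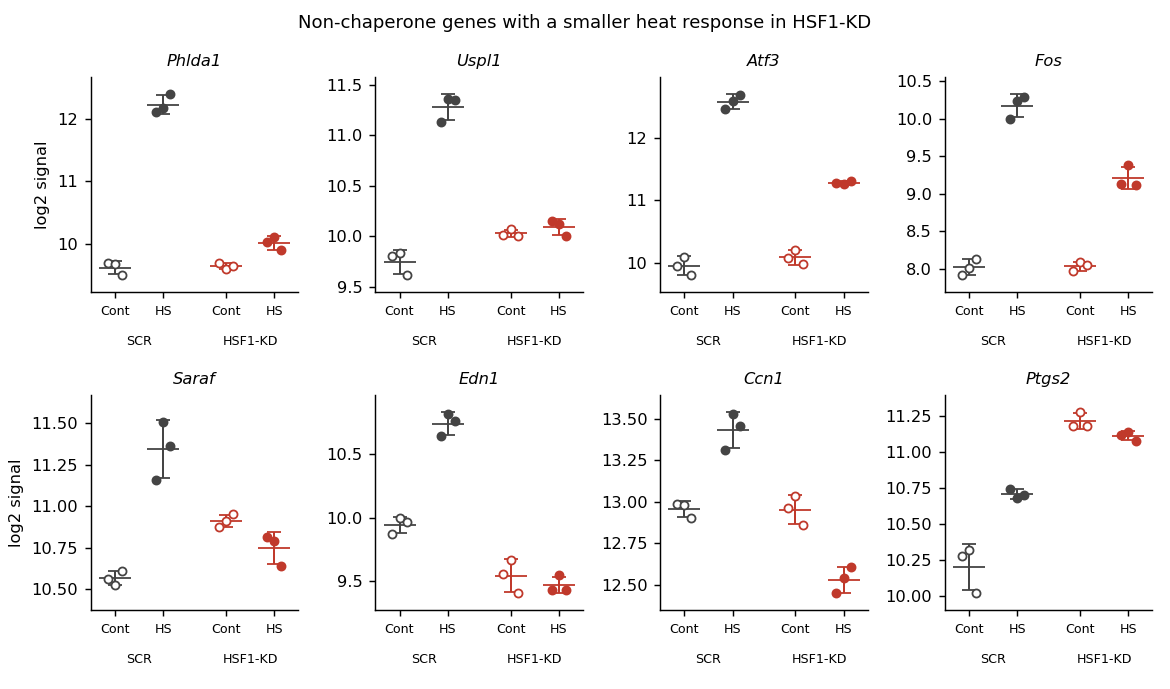
Log2 signal of each of the 12 arrays (points), with the mean (long bar) and SD (capped bar, n = 3) of SCR Cont, SCR HS, HSF1-KD Cont and HSF1-KD HS, for 8 genes outside the chaperones with a smaller heat response in HSF1-KD. Vertical axes are cut to the range of each gene. For Uspl1 the SCR HS arrays stand above the 9 others, for Atf3 and Fos the HSF1-KD HS arrays also rise, to a lower level, and for Ccn1 they fall.

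The genes of immediate signalling were partly kept. Of the 14 AP-1 and ATF factors measured, 11 rose in SCR and 11 in HSF1-KD, and 2, Atf3 and Fos, had a smaller response. Of 31 EGR, IER and other immediate-early genes, 22 rose in SCR and 15 in HSF1-KD, with 7 smaller and 1 larger. Of 19 MAP kinase phosphatases and feedback inhibitors, 14 rose in SCR and 11 in HSF1-KD, with 4 smaller. Of all symbols, 7.63% rose in SCR and 10.6% in HSF1-KD, 0.336% had a smaller response and 0.01% a larger one. The median differences of the 3 lists were -0.12, -0.15 and -0.12, against 0.00 over all symbols. At an unadjusted limma p under 0.05, 6, 14 and 8 of their genes had a negative difference and 0, 3 and 0 a positive one. Of all symbols, 825 had a negative and 742 a positive one. The ordinary linear model called 1, 2 and 1 differences in the 3 lists. Together 47 genes of these lists rose in SCR, and their differences ranged from -2.25 for Phlda1 to 0.52 for Egr1.

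Atf3, a stress-induced factor of the ATF family, and Fos, a subunit of AP-1, rose in both kinds of cells. Atf3 was at 9.96, 10.10 and 9.80 in SCR Cont, 12.45, 12.59 and 12.69 in SCR HS, 10.08, 10.20 and 9.98 in HSF1-KD Cont and 11.27, 11.25 and 11.31 in HSF1-KD HS on the log2 scale. Fos was at 7.92, 8.01 and 8.14, then 10.00, 10.24 and 10.29 in SCR, and at 7.97, 8.09 and 8.05, then 9.13, 9.39 and 9.12 in HSF1-KD. In each gene the Cont groups overlapped, the HSF1-KD HS arrays were all above Cont, and the SCR HS arrays were all higher again. The responses of 2.63 and 1.19 for Atf3 differed by -1.44 (limma adjusted p = 7.38e-06), and those of 2.15 and 1.18 for Fos by -0.98 (0.00367, but 0.0688 with the ordinary linear model).

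The dual-specificity phosphatases, which inactivate MAP kinases, did not move alike. Dusp1, which acts on JNK and p38 as well as ERK, still rose, by 0.91 (difference -0.58, limma adjusted p = 0.0031), and so did Dusp5, by 0.53 against 0.93 (-0.39, 0.0323), although the call for Dusp5 was lost under 12 of the 23 alternatives, with adjusted p up to 0.185. Dusp2 and Dusp6 rose by 0.59 each in SCR and had responses of 0.06 and -0.10 in HSF1-KD (differences -0.53 and -0.70, adjusted p = 0.00155 and 0.00897). With the ordinary linear model the calls for Dusp1 and Dusp6 were lost (adjusted p = 0.0876 and 0.153), and that for Dusp6 also in limma on the 12 compared arrays alone. Dusp8, which acts on JNK and p38, was kept. Its log2 signal was 9.42, 9.57 and 9.39 in SCR Cont, 10.63, 10.64 and 10.51 in SCR HS, 9.63, 9.72 and 9.59 in HSF1-KD Cont and 10.56, 10.53 and 10.47 in HSF1-KD HS. The HS groups overlapped, and the responses of 1.13 and 0.88 differed by -0.25 (95% interval -0.42 to -0.09, adjusted p = 0.34).

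Among the other early genes, Egr2, a zinc finger factor, rose by 1.57 in SCR and 0.78 in HSF1-KD (difference -0.79, limma adjusted p = 0.0119, and up to 0.185 over the alternatives, with the call lost under 3, the fit without SCR HS replicate 2 among them). Gadd45g, a stress sensor upstream of p38 and JNK, rose by 1.21 in SCR and by 0.33 in HSF1-KD (-0.87, 0.00305). The call of its difference was lost with the ordinary linear model (adjusted p = 0.105), and that of its rise in HSF1-KD under 3 alternatives (up to 0.0686). Klf6, a Kruppel-like factor, rose by 1.13 and 0.63 (-0.50, 0.00168), and it was the only call among 13 such factors, of which 5 rose in SCR and 5 in HSF1-KD. In contrast Zfp36, which promotes the decay of AU-rich mRNA, rose by 0.77 and 0.75, with a difference of -0.02 (95% interval -0.24 to 0.20), and Ier2, a nuclear early response protein, by 0.63 and 0.59, with -0.04 (-0.30 to 0.23). Arc, a protein of synaptic plasticity, met the definition of kept although its response was 1.52 in SCR and 0.59 in HSF1-KD, because the difference of -0.93 had an adjusted p of 0.0761. For Myc the responses were 0.51 and -0.01, and the difference of -0.52 likewise missed the threshold (adjusted p = 0.0577). Zfp36, Ier2, Arc and Myc were named after their values were seen.

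**Figure D3:**
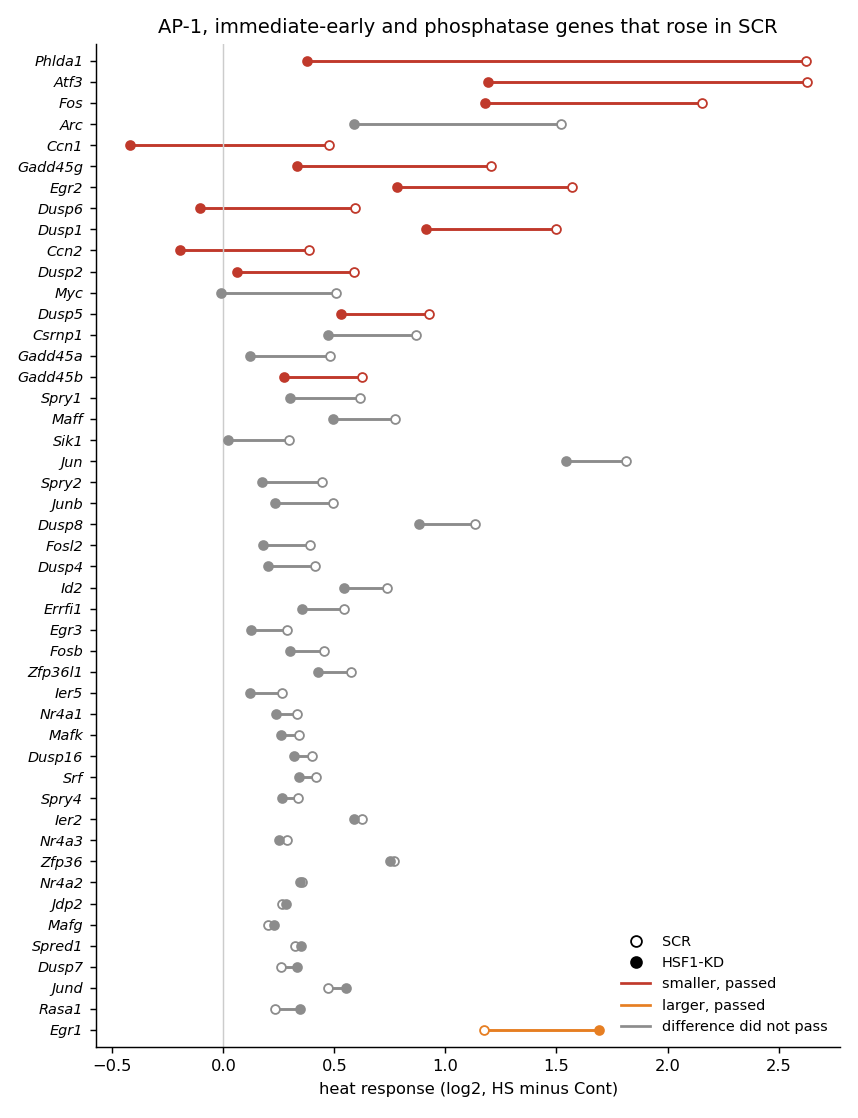
Log2 heat response (horizontal axis, HS minus Cont) in SCR (open points) and in HSF1-KD (filled points) of the 47 genes of the AP-1, immediate-early and MAP kinase phosphatase lists that rose in SCR, 1 gene per line in the order of the difference, coloured by whether that difference passed. The gap is widest for Phlda1 (2.62 and 0.38), is near 0 for Zfp36 and Ier2, and is turned for Egr1 (1.17 and 1.69).

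Beyond the raised genes, 20 genes outside the chaperones had a smaller response without passing the fold in SCR, and 15 of these rose in SCR at any fold. In 7 genes of all measured, the heat responses in SCR and HSF1-KD passed the threshold in opposite directions, and for 5 of them the difference itself passed. Ccn1, a matricellular protein and a target of YAP and SRF, was the clearest. It read 12.99, 12.98 and 12.90 in SCR Cont, 13.31, 13.53 and 13.46 in SCR HS, 12.96, 13.04 and 12.86 in HSF1-KD Cont and 12.45, 12.54 and 12.61 in HSF1-KD HS on the log2 scale. The Cont groups overlapped, all SCR arrays rose and all HSF1-KD arrays fell. The responses were 0.48 and -0.42, a difference of -0.90 (95% interval -1.08 to -0.71, limma adjusted p = 6.32e-05).

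The related gene Ccn2 rose by 0.39 in SCR and fell by 0.19 in HSF1-KD. The difference was -0.58 (limma adjusted p = 0.00684, but 0.107 with the ordinary linear model). The call of the fall of Ccn2 (limma adjusted p = 0.0429) was lost under 11 of 23 alternatives. Plekhf1, an endosomal protein that binds phosphoinositides, rose by 0.45 and fell by 0.23. Its difference was -0.69 (limma adjusted p = 0.00702, but 0.0966 with the ordinary linear model), and the call of the fall was lost under 8 alternatives. Atg16l2, a relative of an autophagy factor, rose by 0.15 and fell by 0.14, and its difference of -0.29 lay at the edge of the threshold (adjusted p = 0.0491) and missed it under 17 alternatives. The fifth, the unnamed transcript D730003I15Rik, rose by 0.63 and fell by 0.34 (difference -0.97, limma adjusted p = 0.00155, but 0.0654 with the ordinary linear model). On the list of angiomotin and YAP target genes, Amotl2, Ccn1 and Ccn2 had smaller responses among 16 measured, with 5 rising in SCR and 4 in HSF1-KD. Id1, an inhibitor of basic helix-loop-helix factors, read 10.10, 10.17 and 10.12 in SCR Cont, 10.11, 10.36 and 10.27 in SCR HS, 9.92, 10.05 and 9.85 in HSF1-KD Cont and 9.50, 9.51 and 9.37 in HSF1-KD HS. Its SCR groups overlapped, whereas the HSF1-KD arrays fell without overlap, by 0.48 (difference -0.59, limma adjusted p = 0.00876). The call of this difference was lost in limma on the 12 compared arrays alone and with the ordinary linear model (adjusted p up to 0.124).

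A smaller response did not always mean less transcript after heat. Of the 51 genes outside the chaperones with a smaller response, 43 were lower in HSF1-KD HS than in SCR HS, where 2127 symbols (10.7%) were lower and 2605 (13.1%) higher in all. In 47 of the 51 every SCR HS array was above every HSF1-KD HS array, as it was for 16.7% of all symbols. Before heat, 15 of the 51 were higher in HSF1-KD and 5 lower, against 2179 (10.9%) and 2014 (10.1%) of all symbols. The 51 genes were chosen on a difference that uses these same arrays. That choice itself favours a lower HS and a higher Cont signal in HSF1-KD. For 8 genes the HSF1-KD signal was higher in Cont and not lower in HS. Ptgs2, the inducible cyclooxygenase, was among them, with 10.27, 10.31 and 10.02 in SCR Cont, 10.74, 10.68 and 10.70 in SCR HS, 11.18, 11.28 and 11.18 in HSF1-KD Cont and 11.12, 11.14 and 11.08 in HSF1-KD HS. All 6 HSF1-KD arrays were above all 6 SCR arrays. HSF1-KD stood 1.01 higher in Cont and 0.40 higher in HS. The heat responses of 0.51 and -0.10 differed by -0.61 (limma adjusted p = 0.00876, but 0.102 with the ordinary linear model). Plau, the urokinase-type plasminogen activator, and Tgfbr1, a TGF-beta receptor, were 0.54 and 0.49 higher in HSF1-KD Cont, did not rise further (-0.13 each), and their signals in HS differed by -0.05 each from SCR. The difference in response passed under all alternatives for Plau (-0.60) and was lost under 11 for Tgfbr1 (-0.54).

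**Figure D4:**
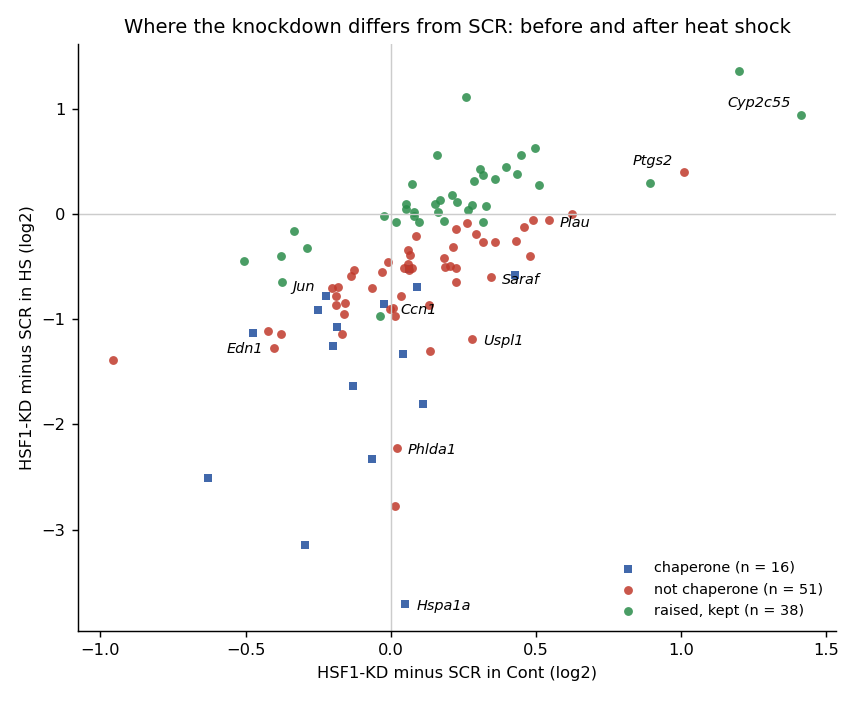
HSF1-KD minus SCR log2 signal in Cont (horizontal axis) and in HS (vertical axis) for the chaperones and the other genes with a smaller response and for kept genes; each point is 1 gene, from means of 3 arrays. Phlda1 lies at 0.02 and -2.23, equal in Cont and lower after heat, while Ptgs2 lies at 1.01 and 0.40, higher in both.

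Over the 38 kept genes the median share of the SCR response left was 96.2%, and the median difference was -0.04. Both follow in part from the definition of kept. In SCR Cont the median log2 signal of the kept genes was 7.53, against 8.22 over all symbols. For the 31 raised genes outside the chaperones with a smaller response it was 9.61. Whether the signal level bears on the class of a gene was not tested. With the dimmer probe sets left out, 24 of the 38 stayed in the table and 23 of these were kept. In Cont, 15 of the 38 were higher in HSF1-KD and 3 lower, against 10.9% and 10.1% of all symbols.

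Jun, the other main subunit of AP-1, was kept. Its log2 signal was 10.46, 10.48 and 10.41 in SCR Cont, 12.17, 12.38 and 12.24 in SCR HS, 10.03, 10.14 and 10.05 in HSF1-KD Cont and 11.63, 11.62 and 11.60 in HSF1-KD HS. Both rises were without overlap, and HSF1-KD was lower at each temperature, by 0.38 in Cont and 0.65 in HS. The responses were 1.81 and 1.54, and the difference was -0.27 (95% interval -0.42 to -0.12, limma adjusted p = 0.217), so that the interval for this single gene leaves out 0 while the adjusted p misses the threshold.

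Best2, a bestrophin chloride channel, had the largest kept rise in HSF1-KD. It read 7.23, 7.59 and 7.29 in SCR Cont, 9.45, 9.32 and 9.37 in SCR HS, 7.63, 7.25 and 7.74 in HSF1-KD Cont and 9.44, 9.64 and 9.45 in HSF1-KD HS. Cont and HS arrays were far apart in both kinds of cells, whose arrays overlapped at 37 °C. The rises of 2.01 and 1.97 differed by -0.04 (95% interval -0.47 to 0.39). Tas2r143, a bitter taste receptor gene, read 6.59, 6.40 and 6.46 in SCR Cont, 7.54, 7.50 and 7.49 in SCR HS, 6.91, 7.09 and 6.80 in HSF1-KD Cont and from 7.98 to 8.23 in HSF1-KD HS. Here HSF1-KD was higher at both temperatures, and the rises of 1.03 and 1.14 differed by 0.11 (-0.16 to 0.38).

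The other kept genes with a gene-like name and the largest rises in HSF1-KD were a mixed set, several of them known from single tissues. They included Vaultrc5, a vault RNA (rises of 1.40 in SCR and 1.46 in HSF1-KD), Lrrn4cl (1.16 and 1.11), Cspg5, a chondroitin sulphate proteoglycan of neurons (1.02 and 0.99), Slc5a5, the sodium and iodide symporter (1.19 and 0.96), Sult6b1, a sulfotransferase (0.79 and 0.93), Agbl2, a tubulin carboxypeptidase (0.79 and 0.91), Gpr75, a G protein-coupled receptor (0.84 and 0.89), A3galt2, a galactosyltransferase (0.67 and 0.88), Ctsk, the protease cathepsin K (1.07 and 0.88), and Clec4a1, a C-type lectin (1.04 and 0.81). Cyp2c55, a cytochrome P450, rose by 1.32 and 0.86, and its Cont signal was 1.41 higher in HSF1-KD. The differences of these 11 genes ran from -0.47 for Cyp2c55 to 0.21 for A3galt2. Of the 38 kept transcripts, 8 carry no gene-like name and were left out of this order, and some of them rose more in HSF1-KD than most of those above, such as, named after their values were seen, 1700030C12Rik (0.86 and 1.72), Gm10785 (1.45 and 1.63), 4933432I09Rik (1.03 and 1.44) and 1700001P01Rik (1.90 and 1.31). A further 17 genes passed the fold in HSF1-KD and not in SCR. None of these had a larger response by limma or by the ordinary linear model, and 6 had a positive difference at an unadjusted p under 0.05.

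**Figure D5:**
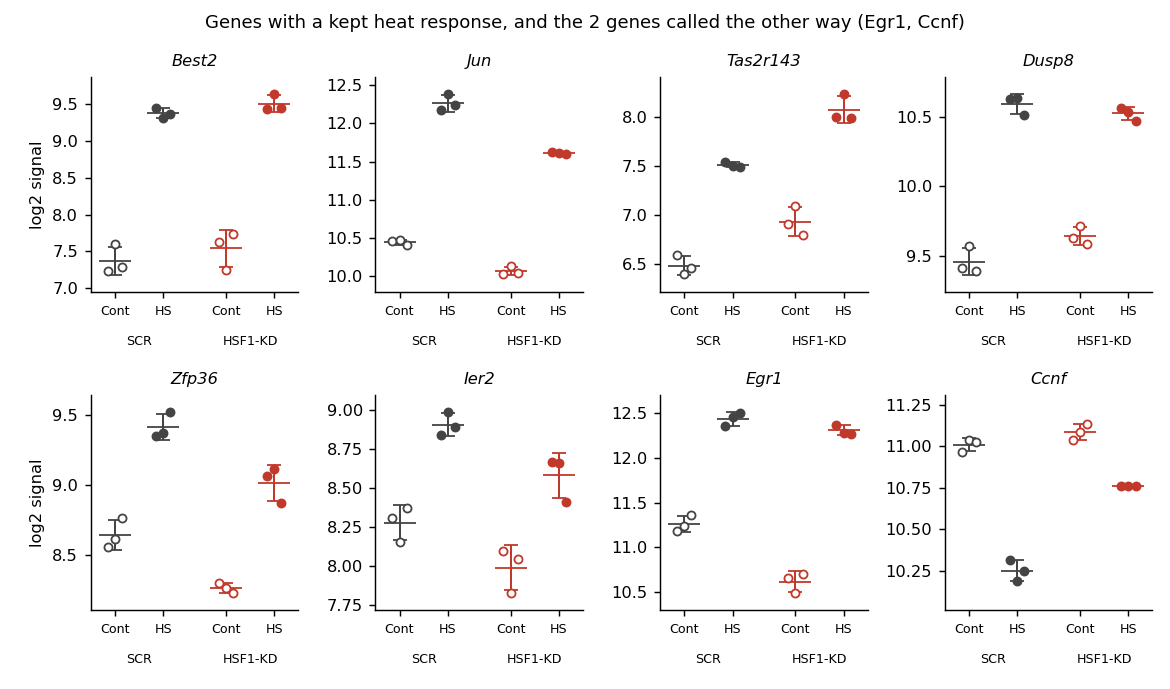
Log2 signal of each of the 12 arrays (points), with the mean (long bar) and SD (capped bar, n = 3) of each group, for 6 kept genes and for the 2 genes with a positive difference, Egr1 and Ccnf. Vertical axes are cut to the range of each gene. Best2 and Jun rise in HSF1-KD nearly as in SCR, Egr1 starts lower in HSF1-KD Cont and reaches the SCR HS level, and Ccnf falls less.

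The 2 larger values were found for Egr1 and Ccnf. Egr1, the immediate-early zinc finger factor, was at 11.19, 11.24 and 11.36 in SCR Cont, 12.35, 12.45 and 12.51 in SCR HS, 10.66, 10.48 and 10.70 in HSF1-KD Cont and 12.37, 12.28 and 12.27 in HSF1-KD HS. It began lower in HSF1-KD, by 0.65 and without overlap, and in HS the arrays overlapped (difference -0.13, adjusted p = 0.249). The rises of 1.17 and 1.69 differed by 0.52 (95% interval 0.31 to 0.73, limma adjusted p = 0.0284), a call that was lost under 10 of 23 alternatives. Ccnf, the cyclin F subunit of a ubiquitin ligase, is a gene that heat shock lowered. It read 10.96, 11.04 and 11.02 in SCR Cont, 10.32, 10.19 and 10.25 in SCR HS, 11.03, 11.09 and 11.13 in HSF1-KD Cont and 10.76 on each array of HSF1-KD HS. The HSF1-KD HS arrays lay between the Cont arrays and the SCR HS arrays. The falls were -0.76 and -0.32, and their difference of 0.43 (95% interval 0.30 to 0.57, limma adjusted p = 0.00403) passed under all 23 alternatives.

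The falls with heat shock were mostly kept. Of the 130 genes lowered over the fold in SCR, 121 fell in HSF1-KD and 89 were kept by the same definition. Ccnf was the 1 gene with a smaller fall, and none had a larger fall by limma. At an unadjusted p under 0.05 the difference was above 0 for 24 of the 130 and below 0 for 3, and the ordinary linear model called 1 of them. The median difference of the 130 was 0.12 and the median share left was 87.4%. As with the raised genes, the choice on the SCR arrays favours a shrinking of the fall.

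The genes of microRNAs made up 44 of the 130 lowered genes, which is 14.8% of the 298 miRNA genes measured against 0.652% of all symbols. MicroRNAs are short RNAs cut from hairpins of longer transcripts, and they recognize mRNA mainly by the seed, bases 2 to 8. All 298 miRNA genes gave 80 falls and 4 rises in SCR, and 91 falls and 3 rises in HSF1-KD. None had a difference that passed with limma or with the ordinary linear model, and 2 did with array weights; 10 had a negative and 6 a positive difference at an unadjusted p under 0.05. Of the 44 lowered, 43 were kept, and their differences had a median of -0.02 and a range from -0.49 to 0.62. These genes were named after their values were seen, and whether the probe sets read the hairpin, its host transcript or the mature RNA was not tested.

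The mature sequences of those with the largest falls, and of members that share a seed, show that the fall was not limited to 1 seed; RefSeq (GRCm38.p6) gave a mature sequence for 43 of the 44 genes. The seed is in capitals.
mmu-miR-15b-5p: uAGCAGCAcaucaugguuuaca
mmu-miR-15a-5p: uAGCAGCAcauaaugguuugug
mmu-miR-16-5p: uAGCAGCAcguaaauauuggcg
mmu-miR-186-5p: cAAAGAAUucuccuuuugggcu
mmu-miR-181b-5p: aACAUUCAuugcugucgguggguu
mmu-miR-125b-5p: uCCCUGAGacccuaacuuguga
mmu-miR-19a-3p: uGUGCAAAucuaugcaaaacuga
mmu-let-7c-5p: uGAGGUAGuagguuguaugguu
mmu-let-7e-5p: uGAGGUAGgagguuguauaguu
mmu-miR-98-5p: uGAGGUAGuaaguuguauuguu

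Mir15b, whose product has the seed AGCAGCA, read 7.60, 7.70 and 7.60 in SCR Cont, 4.61, 4.61 and 4.63 in SCR HS, 7.02, 7.13 and 7.43 in HSF1-KD Cont and 4.25, 4.36 and 4.16 in HSF1-KD HS. The groups at 37 °C and 42 °C were far apart in both kinds of cells. Its heat responses were -3.02 in SCR and -2.94 in HSF1-KD, with a difference of 0.08 (95% interval -0.45 to 0.62). Every HS array of Mir15b lay below 6.83, the lower quartile of all symbols in SCR Cont. Falls that end at so low a signal can be cut short in both kinds of cells, which was not tested. The same seed is shared by the products of Mir15a, Mir16-1 and Mir16-2. Mir15a responded by -1.94 and -1.80 and Mir16-2 by -1.42 and -1.31, while Mir16-1 was the exception among the 44, with -0.87 in SCR and -0.25 in HSF1-KD (adjusted p = 0.0731 for the latter, difference 0.62 with limma adjusted p = 0.0742).

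The seed GAGGUAG of the let-7 family was shared by 5 of the lowered genes, Mir98, Mirlet7c-1, Mirlet7d, Mirlet7e and Mirlet7f-1. All 5 falls were kept, with responses from -1.84 to -0.80 in SCR and from -1.91 to -1.10 in HSF1-KD. Among miRNA genes with other seeds, Mir186 responded by -2.74 and -2.63, Mir181b-1 by -2.47 and -2.48, Mir125b-1 by -2.24 and -2.11, and Mir19a by -2.10 and -2.30. Mir145a fell by 2.28 in SCR and by 1.69 in HSF1-KD, and its difference of 0.59 missed the threshold (adjusted p = 0.0679). Of 51 snoRNA genes, 12 were lowered in SCR and 11 of these were kept, so that the rise of Snord14e stood beside falls of most snoRNA genes that responded.

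Replication-dependent histone genes, whose mRNA is made in S phase, fell as a group. Of 21 measured, 18 fell in SCR and 16 in HSF1-KD. None had a difference that passed with limma or the ordinary linear model, and 2 did with array weights; 9 had a positive difference at an unadjusted p under 0.05 and none a negative one, and the median difference was 0.21. H3c15 read 9.81, 9.77 and 9.69 in SCR Cont, 8.16, 7.95 and 8.18 in SCR HS, 9.63, 9.07 and 9.45 in HSF1-KD Cont and 8.49, 8.65 and 8.37 in HSF1-KD HS. All HS arrays were below all Cont arrays, and the HSF1-KD arrays lay inside the range of SCR. Its falls were -1.66 and -0.88 (difference 0.78, 95% interval 0.33 to 1.23, limma adjusted p = 0.24), and those of H1f5, a linker histone, -1.33 and -1.18. In Cont, 15 of the 21 histone genes were lower in HSF1-KD, against 10.1% of all symbols, with a median of -0.50. The part of this lower start in the falls was not tested.

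Other kept falls were those of Lcmt2, a tRNA-modifying enzyme (-1.28 in SCR and -0.97 in HSF1-KD), Lpar6, a lysophosphatidic acid receptor (-1.15 and -1.04), Zfp39, a zinc finger protein (-1.05 and -0.83), Lfng, a glycosyltransferase that modifies Notch (-0.99 and -0.94), Snx32, a sorting nexin (-0.82 and -0.76), and Rpl12, a ribosomal protein (-0.90 and -0.82). The noncoding host transcripts Dancr and Snhg5 fell by 0.74 and 0.72 in SCR and by 0.96 and 0.81 in HSF1-KD. Dleu2, the host gene of Mir15a and Mir16-1, had values of -1.73 and -0.70, and its difference of 1.03 did not pass (95% interval -0.48 to 2.55, adjusted p = 0.758).

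Genes were also chosen without the SCR arrays, on their rise in SSBP1-KD. In the study, SSBP1 knockdown itself lowered the heat induction of chaperones. Fewer genes passed the fold here than the 120 in SCR. A choice on SSBP1-KD can thus favour genes that depend less on HSF1, which was not tested. Heat shock raised 42 genes by the fold in SSBP1-KD (0.211%), 6 chaperones and 36 others. All 6 chaperones had a smaller response in HSF1-KD than in SCR, and 2 of them rose there. Of the 36 others, 7 had a smaller response, 1 a larger one, 24 a difference below 0, and 33 rose in HSF1-KD. Of all symbols, 0.336% had a smaller response, 0.01% a larger one, 9914 of 19938 a difference below 0, and 10.6% rose in HSF1-KD. The median difference of the 36 was -0.18. Without SSBP1-KD Cont replicate 1, the array that stood apart, 9 had a smaller response.

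Lists of other stress pathways held few or no calls. Among 9 known targets of HSF1 outside the chaperones, 5 rose in SCR and 3 in HSF1-KD, and Phlda1 and Atf3 had smaller responses. At an unadjusted limma p under 0.05, 5 of the 9 had a negative difference and 0 a positive one. The mitochondrial chaperones Hspd1 and Hspe1 were the 2 calls among 23 mitochondrial chaperones and proteases, with differences of -0.83 and -0.65. Of 26 endoplasmic reticulum chaperones and genes of the unfolded-protein response, none rose, 8 fell in SCR and 15 in HSF1-KD, and no difference passed with limma or the ordinary linear model (4 below 0 at an unadjusted p under 0.05). Ubiquitin genes and autophagy adaptors kept small rises, 4 in SCR and 5 in HSF1-KD of 13 measured, such as Gabarapl1 with 0.27 and 0.36. Of 22 inflammatory cytokine genes, 5 rose in SCR and 1 in HSF1-KD, and Ptgs2 was the 1 call. At an unadjusted limma p under 0.05, 8 of the 22 had a negative difference and 0 a positive one. In HSF1-KD Cont 10 were higher, against 10.9% of all symbols. Over all lists without any call, which hold 303 genes, 24 had a negative and 24 a positive difference at an unadjusted p under 0.05 (15.8% together). Of all 19938 symbols, 825 had a negative and 742 a positive one. The ordinary linear model called 0 of the 303 genes and array weights called 3.

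Several of these lists differed between the cells before heat. Of all symbols, 10.9% were higher and 10.1% lower in HSF1-KD Cont. Of 18 interferon-stimulated genes, 15 were higher in HSF1-KD Cont and none lower, with a median of 0.35, while 0 rose with heat in either kind of cell. Of 16 cholesterol synthesis genes, 11 were higher in HSF1-KD Cont, and of 26 collagen and matrix genes 17 were lower. Falls with heat among the collagen and matrix genes numbered 3 in SCR and 10 in HSF1-KD, with no difference that passed by limma (5 below 0 at an unadjusted p under 0.05, 0 by the ordinary linear model, 1 with array weights). Timp3, an inhibitor of metalloproteinases, had responses of -0.22 and -0.47 (difference -0.25, adjusted p = 0.0679).

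The promoters of the genes with smaller responses were read for heat shock elements. RefSeq windows from 250 bases before to 50 bases after the start were searched on both strands for GAA and its complement TTC in alternation, with 2 bases between, as 3 units in a row or as 2, the shorter motif being part of the longer. The 3-unit motif was in the window of 3 of 15 chaperones with a smaller response (20%), in 1 of 39 other genes with a smaller response (2.56%), in 1 of 27 kept genes (3.7%) and in 88 of all 15614 genes with a window (0.564%). The 2-unit motif was in 11 of 15 (73.3%), 10 of 39 (25.6%), 5 of 27 (18.5%) and 2398 of 15614 (15.4%). An AP-1 site (TGANTCA) was in 6 of the 39 (15.4%) and in 8.08% of all windows. A window was given for 39 of the 51 genes outside the chaperones with a smaller response, and for 27 of the 38 kept genes. Phlda1, Uspl1, Saraf and Ccn2 had no window and were not searched. A match is a description of the letters and not of binding, and no match says nothing of elements outside the window.

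Windows are shown for Kctd18, the 1 gene outside the chaperones with a smaller response and 3 units, for Edn1 and Ccn1 with 2 units, for the kept gene Jun with 2 units, and for the mitochondrial chaperone gene Hspe1 as a reference; Edn1, Ccn1 and Hspe1 were chosen after their values were seen. Matches are in capitals, and the sequences run 5′ to 3′ on the strand of the gene.
Kctd18, chr1:57970035-57970334, minus strand: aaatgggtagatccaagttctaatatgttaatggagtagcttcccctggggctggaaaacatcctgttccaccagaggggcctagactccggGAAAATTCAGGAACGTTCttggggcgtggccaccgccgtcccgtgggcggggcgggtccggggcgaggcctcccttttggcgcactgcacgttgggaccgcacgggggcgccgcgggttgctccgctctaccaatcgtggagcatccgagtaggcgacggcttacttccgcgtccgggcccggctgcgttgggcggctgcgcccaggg
Edn1, chr13:42301226-42301525, plus strand: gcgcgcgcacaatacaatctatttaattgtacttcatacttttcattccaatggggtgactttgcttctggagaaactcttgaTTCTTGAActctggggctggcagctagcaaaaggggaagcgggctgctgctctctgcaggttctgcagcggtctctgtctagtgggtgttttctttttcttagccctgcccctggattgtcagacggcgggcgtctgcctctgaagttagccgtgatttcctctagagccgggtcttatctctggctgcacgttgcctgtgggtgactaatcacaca
Ccn1, chr3:145649936-145650235, minus strand: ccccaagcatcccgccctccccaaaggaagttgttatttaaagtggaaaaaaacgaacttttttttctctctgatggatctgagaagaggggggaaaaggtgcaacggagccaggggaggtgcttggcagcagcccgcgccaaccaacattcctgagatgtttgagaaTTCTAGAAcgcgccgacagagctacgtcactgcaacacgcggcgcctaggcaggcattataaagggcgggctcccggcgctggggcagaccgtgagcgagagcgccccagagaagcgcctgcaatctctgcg
Jun, chr4:95052173-95052472, minus strand: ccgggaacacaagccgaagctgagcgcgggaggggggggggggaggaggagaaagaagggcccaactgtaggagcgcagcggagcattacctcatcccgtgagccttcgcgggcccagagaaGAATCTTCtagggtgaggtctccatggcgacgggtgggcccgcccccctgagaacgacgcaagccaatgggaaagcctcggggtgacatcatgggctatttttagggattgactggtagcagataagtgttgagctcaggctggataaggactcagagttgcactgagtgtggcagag
Hspe1, chr1:55087898-55088197, plus strand: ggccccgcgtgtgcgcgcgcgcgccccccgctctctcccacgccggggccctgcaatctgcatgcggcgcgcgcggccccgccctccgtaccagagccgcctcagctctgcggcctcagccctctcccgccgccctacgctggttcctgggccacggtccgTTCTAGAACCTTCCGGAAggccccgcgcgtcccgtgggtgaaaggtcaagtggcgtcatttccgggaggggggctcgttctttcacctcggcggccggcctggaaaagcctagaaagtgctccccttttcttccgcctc

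Kctd18 and Hspe1 each held 2 overlapping 3-unit matches. Together these span bases -158 to -141 from the start in Kctd18 and bases -89 to -72 in Hspe1. The log2 signal of Kctd18 was 7.69, 7.54 and 7.50 in SCR Cont, 7.99, 8.22 and 8.02 in SCR HS, 7.44, 7.65 and 7.46 in HSF1-KD Cont and 7.32, 7.41 and 7.40 in HSF1-KD HS. The SCR HS arrays were above the 9 others. Its responses were 0.50 and -0.14 (difference -0.63, limma adjusted p = 0.00817). The call was lost in limma on the 12 compared arrays alone and with the ordinary linear model (adjusted p up to 0.134). The matches in Ccn1 (-82 to -75), Jun (-128 to -121) and Edn1 (-167 to -160) belong to genes with an opposite, a kept and a lost response, in that order.

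Of 62 protein-coding genes with a smaller response, 4 (6.45%) had a neighbour with a smaller response, as did 119 of 18562 measured protein-coding genes (0.641%). These were Hspd1 with Hspe1 and Swt1 with Trmt1l, each pair on chromosome 1. Swt1 and Trmt1l are read in opposite directions from starts that lie 107 bases apart, so that their windows share 206 bases. Their responses were 0.84 and 0.71 in SCR and 0.03 and 0.02 in HSF1-KD, and the differences passed for both (limma adjusted p = 0.00882 and 0.000398). The call for Swt1 was lost with the ordinary linear model (adjusted p = 0.105).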

How the data were processed

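RNA of MEF cells was measured on 18 GeneChip Mouse Gene 1.0 ST arrays (200 ng of total RNA each), 3 in each of 6 groups. The authors deposited log2 signals per probe set in 1 table, made with RMA and Partek 6.5 according to their processing notes. No background correction or normalization was repeated. Arrays have no read depth, and their number limits the precision. Of 35557 probe sets, 21789 carry 1 symbol, 1621 several and 12147 none; 21766 of the first were matched to RefSeq, and the brightest probe set by mean signal stood for each of 19938 symbols (999 had several).

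All 18 arrays entered 1 fit in limma 3.58.1 under R 4.3.3 (lmFit and eBayes, 1 mean per group, 12 residual and 2.36 prior degrees of freedom), with Benjamini-Hochberg adjustment over all probe sets and 95% intervals per gene. The fit was tested on simulated data. For its experiments in general the paper gives 2 kinds of test, Student's and analysis of variance, without saying which served the arrays, and the latter was run as an alternative. Further alternatives were other normalizations, filters, arrays, priors and array weights, a term for the replicate number, other folds, the probe set of largest variance and each array left out. Same-numbered arrays gave 18 pairs, of which 1 had a residual correlation over 0.1, and the numbers were not taken as pairs.

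The genes, lists and tests were chosen with earlier results of these data known. Named genes were the 20 most negative differences among raised genes outside the chaperones, the 15 largest kept rises, the 10 most positive differences, the 10 most negative among genes not raised, the 10 largest falls in each kind of cell, up to 4 members per list, genes that the paper names and genes with opposite responses. Symbols without a gene-like name, and genes so described in the text, were named after their values were seen. The chaperones are the 4 chaperone lists of 24 pathway lists. Plots were made in matplotlib 3.10.9 (Python 3.11.15).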

Additional observations from a re-analysis of the deposited data

Results flagged for a closer look

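The heat response differed between SCR and HSF1-KD by the test of the difference itself for 67 genes with a smaller and 2 genes with a larger response (limma, adjusted p under 0.05). Among named genes, the differences of Ccn1 (-0.90), Plekhf1 (-0.69), Ccn2 (-0.58) and Atg16l2 (-0.29) were singled out because heat raised the gene in SCR and lowered it in HSF1-KD, on the log2 scale. Egr1 (0.52) and Ccnf (0.43) were singled out as the 2 genes whose difference was positive. The causes were not tested.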

How the results depend on the processing

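No difference or count of a named comparison turned its direction under the 23 alternatives. Of 53 called differences of named genes 26 passed under all of them, and of 123 called heat responses in HSF1-KD 99 did. The 67 smaller responses became 32 with the ordinary linear model, all among the 67, and 47 to 85 without 1 array. The 31 raised genes outside the chaperones with a smaller response became 12 with the ordinary model and 12 at a fold above 2, and 16 to 37 without 1 array. The 38 kept genes became 23 with the dimmer probe sets left out, 129 at a fold above 1.3 and 9 at a fold above 2, and 37 to 41 without 1 array. The 2 larger responses became 9 without the dimmer probe sets, 7 with only probe sets of 1 symbol, 7 with a trended and robust prior and 21 with array weights, and 1 to 8 without 1 array. The 1 smaller fall became 2 without the dimmer probe sets, 4 with probe sets of 1 symbol, 2 on the 12 compared arrays, 2 with the trended prior, 5 with array weights and 0 at a fold above 2, and 1 to 2 without 1 array. The 7 genes chosen in SSBP1-KD became 17 and 2 at folds of 1.3 and 2, and 6 to 9 without 1 array. Without 1 array, 1524 to 2359 genes rose and 1632 to 2383 fell in HSF1-KD, and 3124 to 4661 differed from SCR in Cont and 3582 to 5176 in HS. The fit without SSBP1-KD Cont replicate 1 (5 larger responses, 2 smaller falls) was chosen after seeing the data. The cause of these shifts was not tested.

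With the replicate number as a block, 61 responses were smaller, 58 of them among the 67, 2 larger, 27 of the raised genes smaller, 39 kept and 1 fall smaller. In the blocked fit 6 of the genes chosen in SSBP1-KD were smaller, 2002 genes rose and 2051 fell in HSF1-KD, and 3969 and 4538 differed from SCR in Cont and HS. Of the 12 arrays, 7 had residuals closest to those of an array of their own number, a hint from the data and not from the design. Another scaling moved the median of all genes by at most 0.02.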
